A study of Mus musculus with 6 samples.

Results

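Nuclear genes for the subunits of the 5 oxidative phosphorylation complexes were followed in regulatory T cells (Treg cells) from mouse spleen. A member was a row of the deposited table whose gene symbol starts with Ndufa, Ndufb, Ndufc, Ndufs or Ndufv and a digit (complex I), is Sdha to Sdhd (complex II), or starts with Uqcr (complex III), Cox4 to Cox8 (complex IV) or Atp5 (complex V), without pseudogene names ending in -ps. This gave 85 of the 46078 rows, 38 for complex I, 4 for complex II, 9 for complex III, 18 for complex IV and 16 for complex V.

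Complexes I to IV pass electrons from NADH and succinate to oxygen in the inner mitochondrial membrane and pump protons, except complex II, which pumps none, and complex V, the ATP synthase, uses the proton gradient to make ATP. Complexes I, III, IV and V each combine subunits of the nuclear and the mitochondrial genome, while complex II is built from nuclear genes alone. Treg cells are known to rely on mitochondrial respiration more than activated conventional T cells do.

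There were 6 RNA-seq libraries of sorted CD4-positive, eGFP-positive spleen cells from C57BL/6 mice aged 6 to 8 weeks, 3 labelled MAZR-cKO and 3 labelled wild type (WT). The first 3 came from mice with loxP-flanked (f/f) alleles of the gene for the transcription factor MAZR and a CD4-cre transgene, which acts in T cells generally and not in Treg cells alone. All 6 carried the DEREG transgene, in which Foxp3 control sequences drive a diphtheria toxin receptor fused to eGFP, so that eGFP marks Foxp3-expressing cells, and the labels list no Cre for the WT mice. The labels do not say whether a library is 1 animal or a pool, and the sex-linked genes given below bear on this. The number of animals behind a library is not given, so a p-value covers only how these libraries vary. In bulk RNA fewer cells of a type and less RNA per cell cannot be told apart.

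The libraries held 15481565 to 28184456 reads, and levels are given in CPM, a gene's reads scaled to the size of its library. Patz1, which encodes MAZR, stood at 177, 181 and 179 CPM in the MAZR-cKO-labelled libraries 1, 2 and 3, against 71.6, 74.9 and 67.6 CPM in WT 1, 2 and 3. It was thus higher where a deletion was meant, and since a gene total does not show whether the targeted exons were present, the genotype is written as a label. The 7 Treg markers summed to 5072 to 5461 CPM in the MAZR-cKO-labelled libraries and 5123 to 5559 CPM in WT, with Foxp3 at 1364 ± 51 and 1323 ± 63 CPM (SD, n = 3 each). Myeloid markers summed to 100.4, 80.7 and 35.6 CPM in MAZR-cKO 1, 2 and 3 and 61.9 to 71.7 CPM in WT, and B cell markers to 69.6, 73.2 and 42.3 CPM in MAZR-cKO 1, 2 and 3 and 46.5 to 60.4 CPM in WT. CD8 T cell markers summed to 15.1 to 17.2 CPM in the MAZR-cKO-labelled libraries and 13.4 to 15.4 CPM in WT, and red cell markers to 9.47 to 20.01 CPM in the MAZR-cKO-labelled libraries and 13.6 to 48.7 CPM in WT.

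The 250 bases before the transcription start are shown for 1 gene of each complex, the subunit with the smallest p in the genotype comparison. Capitals mark matches, on either strand, to short words for factors known to act at promoters of respiratory genes, GCGCA, any base and GCGC for NRF1, CCGGAAG for the ETS family that includes GABP and ATGGCGG for YY1, and to GGGAGGG, a word for MAZ, a relative of MAZR. The sequences are RefSeq's for build GRCm38.p6 and read 5′ to 3′ on the gene's strand. Ndufa7 lies at chr17:33824322-33824571 (plus strand), Sdha at chr13:74350241-74350490 (minus), Uqcrh at chr4:116075071-116075320 (minus), Cox7b at chrX:106015450-106015699 (plus) and Atp5d at chr10:80142025-80142274 (plus).
Ndufa7: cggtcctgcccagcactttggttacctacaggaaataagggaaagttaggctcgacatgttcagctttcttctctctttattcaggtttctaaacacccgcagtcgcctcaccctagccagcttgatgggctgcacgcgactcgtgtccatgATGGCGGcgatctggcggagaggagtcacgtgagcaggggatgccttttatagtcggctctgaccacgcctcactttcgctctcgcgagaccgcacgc
Sdha: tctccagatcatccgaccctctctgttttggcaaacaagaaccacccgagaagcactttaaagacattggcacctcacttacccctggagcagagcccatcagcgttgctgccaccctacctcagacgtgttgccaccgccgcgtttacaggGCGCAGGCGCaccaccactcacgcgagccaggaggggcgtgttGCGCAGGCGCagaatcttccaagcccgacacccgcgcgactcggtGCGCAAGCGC
Uqcrh: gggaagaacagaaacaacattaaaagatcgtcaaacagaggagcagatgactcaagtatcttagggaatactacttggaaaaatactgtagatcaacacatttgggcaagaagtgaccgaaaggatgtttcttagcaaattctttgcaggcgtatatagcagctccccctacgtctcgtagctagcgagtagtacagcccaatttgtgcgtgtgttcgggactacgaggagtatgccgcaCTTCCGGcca
Cox7b: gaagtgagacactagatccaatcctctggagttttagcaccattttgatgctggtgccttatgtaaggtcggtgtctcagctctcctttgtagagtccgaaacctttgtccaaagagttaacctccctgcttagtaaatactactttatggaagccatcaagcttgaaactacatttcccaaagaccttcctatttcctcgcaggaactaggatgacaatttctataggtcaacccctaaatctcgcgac
Atp5d: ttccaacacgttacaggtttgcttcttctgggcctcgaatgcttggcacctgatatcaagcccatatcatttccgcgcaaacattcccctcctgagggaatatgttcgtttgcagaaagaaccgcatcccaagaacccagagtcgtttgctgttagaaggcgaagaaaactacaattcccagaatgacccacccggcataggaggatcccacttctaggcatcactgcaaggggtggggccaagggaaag

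The Ndufa7 window held 1 YY1 word, the Sdha window 3 NRF1 words and the Uqcrh window 1 ETS word on its minus strand, and the Cox7b and Atp5d windows held none of the 4. Of 64 tested members with a RefSeq window, 13 (20.3%) had the NRF1 word, which 4.23% of 27025 genes and 9.90% of the 9090 tested genes with a window had. The ETS word was in 11 members (17.2%), against 7.83% of all genes and 17.0% of tested genes. YY1 words were in 4 members (6.25%), against 2.58% of all and 4.82% of tested genes. The MAZ word was in 10 members (15.6%), against 21.5% of all and 27.8% of tested genes. Complex I held 6 of the 13 genes with an NRF1 word, complex V 4, complex II 2, complex IV 1 and complex III 0, of 32, 14, 3, 10 and 5 windows. These are matches of letters and not binding sites.

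Of the 85 members, 76 reached 1 CPM in at least 3 libraries and were compared between the labels. Another 5 had no read in any library, namely Ndufa4l2, Cox7b2, Cox8b, Cox8c and a second Uqcrc1 row (ENSMUSG00000107235) that had no match in the annotation. The remaining 4, Cox4i2, Cox6a2, Cox7a1 and Atp5l, had reads below that limit. Among the 76 is a second row with the symbol Ndufa13, ENSMUSG00000048967, which the annotation names Yjefn3, a gene overlapping Ndufa13 on the same strand. Its level was 0.746 to 2.05 CPM, while Ndufa13 itself stood at 82.7 to 90.5 CPM.

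None of the 76 differed between the labels by limma at an adjusted p under 0.05, where 5 of 12040 genes (0.0415%) did, all higher, and their adjusted p ran from 0.914 to 0.999. edgeR and DESeq2, run on the recovered reads, also called 0 members, beside 0.0386% and 0.262% of 12957 genes. At an unadjusted limma p under 0.05 there were 4 lower members and 0 higher ones, beside 2.92% of all tested genes lower and 2.33% higher. With the replicate number as a block, 0 members were called, beside 0.382% of all genes in either direction and 0.0831% lower, and 7 were lower and 0 higher at an unadjusted p under 0.05, beside 6.66% and 3.98% of all genes.

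Most members had a slightly smaller mean in the MAZR-cKO-labelled libraries. The log2 fold change on the log2(CPM + 0.5) scale was under 0 in 67 of 76 members, with a median of -0.07, while it was under 0 in 56.1% of all tested genes, with a median of -0.01. By complex it was under 0 in 33 of 37 tested genes for complex I, 4 of 4 for complex II, 8 of 8 for complex III, 10 of 12 for complex IV and 12 of 15 for complex V. The medians were -0.07, -0.07, -0.08, -0.07 and -0.07. With all 6 libraries the 5 complexes thus had nearly the same median, and the single genes ran from -0.27 for Atp5g1 to 0.35 for Cox6b2. Among the 66 members with a mean of 10 CPM or more, 62 were under 0, and among the 10 below that level 5 were. Of all 8825 tested genes at 10 CPM or more, 59.3% were under 0, with a median of -0.02. With the Yjefn3 row left out, 66 of 75 members were under 0, and 32 of 36 for complex I.

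**Figure D1:**
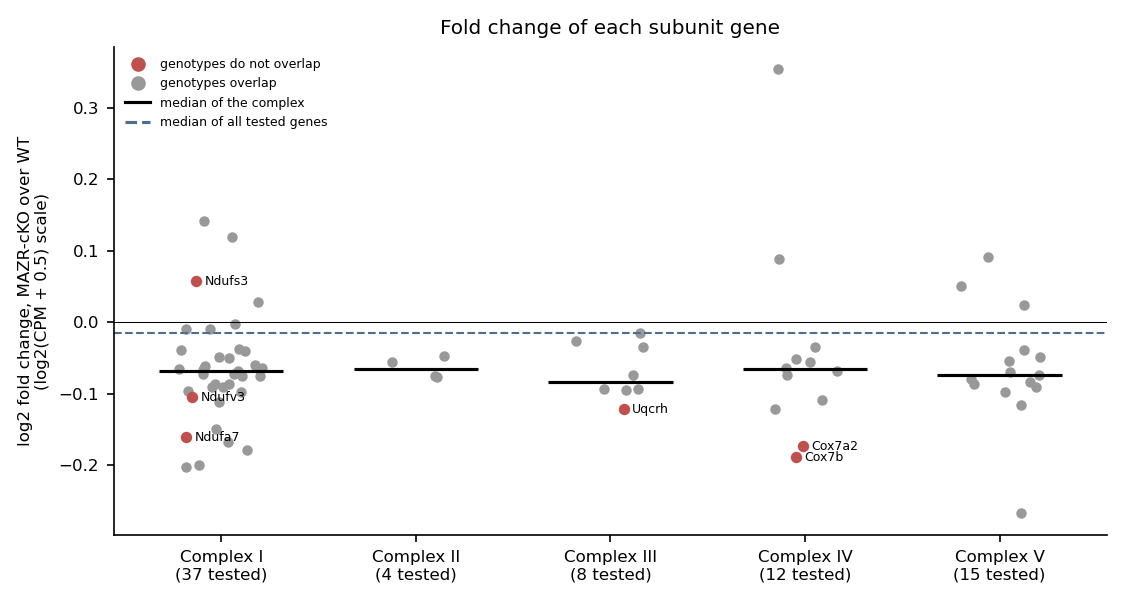
Log2 fold change (MAZR-cKO-labelled libraries over WT, log2(CPM + 0.5) scale) of each of the 76 tested members by complex, the Yjefn3 row among those of complex I. The median of each complex is a black line and the median of all 12040 tested genes a dashed line. The complex medians lie between -0.08 and -0.07, and the 6 named genes are those whose genotypes did not overlap.

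The summed CPM of all 85 members was 5459, 5369 and 5945 in MAZR-cKO 1, 2 and 3, against 5896, 5885 and 5880 in WT 1, 2 and 3. Only the sums of MAZR-cKO 1 and 2 were below the WT range, and that of MAZR-cKO 3 was above it. The means were 5591 ± 310 CPM in the MAZR-cKO-labelled libraries and 5887 ± 8.0 CPM in WT (SD, n = 3 each), a difference of -5.03%. These values rest on the deposited scaling. The ratio of the means was 0.950, and 0.955 after library medians were made equal. For complex I the sums were 1561, 1562 and 1717 CPM in MAZR-cKO 1, 2 and 3 and 1681, 1727 and 1665 CPM in WT. For complex II they were 475, 471 and 517 CPM against 513, 518 and 503 CPM, and for complex III 604, 592 and 660 CPM against 650, 654 and 644 CPM. Complex IV summed to 764, 746 and 821 CPM against 831, 824 and 823 CPM, the 1 complex whose sums did not overlap. Its margin was thin, 820.9 CPM in MAZR-cKO 3 against 823.2 CPM in WT 3. It holds for the deposited scaling, and overlap under another scaling was not tested. Complex V, the most abundant, summed to 2055, 1997 and 2231 CPM against 2220, 2162 and 2245 CPM.

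**Figure D2:**
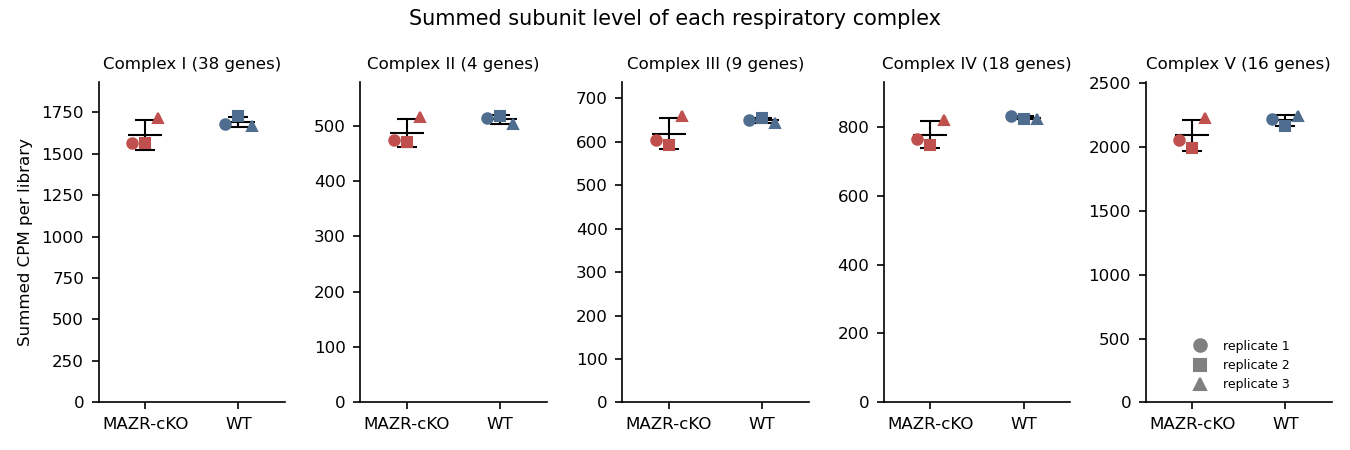
Summed CPM of the member genes of each complex per library, the MAZR-cKO-labelled ones left of WT, with the mean and SD of 3 libraries. MAZR-cKO 1 and 2 lie below the WT libraries in every complex, while MAZR-cKO 3 (triangle) lies among or above them in complexes I, II, III and V.

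The difference was carried by 2 of the 3 MAZR-cKO-labelled libraries. Relative to the mean of the WT libraries, the median member stood at -0.11 and -0.12 on the log2 scale in MAZR-cKO 1 and 2 and at 0.02 in MAZR-cKO 3, while the WT libraries lay from -0.003 to 0.01. Over all tested genes the same medians were -0.03, -0.01 and 0.002 in MAZR-cKO 1, 2 and 3. MAZR-cKO 2 was the lowest of the 6 libraries for 35 members and MAZR-cKO 1 for 26, and MAZR-cKO 3 was lowest for 0 and highest for 22. Between libraries of the same number, 69 of 76 members were lower in MAZR-cKO 1 than in WT 1 and 68 in MAZR-cKO 2 than in WT 2, but 23 in MAZR-cKO 3 than in WT 3. Of all tested genes, 56.9%, 53.3% and 51.4% were lower in pairs 1, 2 and 3. In all 3 pairs 20 members (26.3%) were lower, beside 19.2% of all genes.

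Other features also differed between these libraries. MAZR-cKO 3 had the most reads of the 6 and MAZR-cKO 1 the fewest, while MAZR-cKO 2, with 18369224 reads, lay inside the WT range of 17671951 to 19148883. Myeloid and B cell markers, given above, were highest in MAZR-cKO 1 and 2 and lowest in MAZR-cKO 3. The Y-linked genes Uty, Kdm5d, Ddx3y and Eif2s3y, 4 in all, summed to 116, 0.480 and 199 CPM in MAZR-cKO 1, 2 and 3, against 217, 164 and 276 CPM in WT, and Xist stood at 1145, 1552 and 605 CPM against 561, 774 and 355 CPM. MAZR-cKO 2 had almost no Y-linked reads, and each other library held both Xist and Y-linked reads, as a mix of male and female cells would. In each numbered pair the MAZR-cKO-labelled library had more Xist and less Y-linked CPM than the WT library. An effect of the sex mix thus cannot be told apart from one of the label. The part of these features in the result was not tested. Without MAZR-cKO 3 the median of the members was -0.12, with 70 of 76 under 0 and 0 called by limma, and without MAZR-cKO 1 or 2 it was -0.05 each time, with 60 under 0. Without MAZR-cKO 1 the medians of complexes I to V were -0.04, -0.05, -0.02, -0.06 and -0.06, without MAZR-cKO 2 they were -0.05, -0.05, -0.03, -0.05 and -0.04, and without MAZR-cKO 3 they were -0.12, -0.11, -0.13, -0.09 and -0.12. The median of complex III thus moved most with the library left out.

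**Figure D3:**
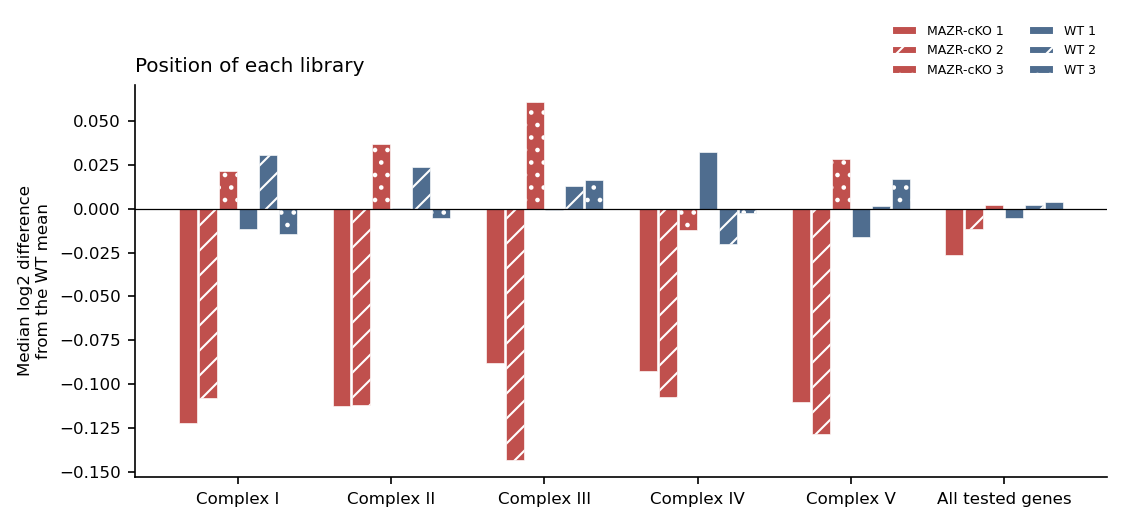
Median over the tested members of each complex, and over all tested genes, of the log2 difference of each library from the mean of the WT libraries. In every complex MAZR-cKO 1 and 2 stand lowest, while MAZR-cKO 3 lies from -0.01 in complex IV to 0.06 in complex III, and the medians of all tested genes lie between -0.03 and 0.004.

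In complex I, which takes electrons from NADH, the members of smallest p were Ndufa7, Ndufa6 and Ndufa11, all accessory subunits. Ndufa7 had 49.0, 48.5 and 53.9 CPM in MAZR-cKO 1, 2 and 3, against 56.1, 58.6 and 54.7 CPM in WT, without overlap. Its log2 fold change was -0.16 (SE 0.06, limma adjusted p = 0.914). Ndufa6 had 54.4, 52.2 and 63.7 CPM, against 65.0, 66.2 and 61.0 CPM in WT, so that MAZR-cKO 3 lay inside the WT range (log2 fold change -0.18, SE 0.08, limma adjusted p = 0.914). Ndufa6 was the 1 member called in any of the settings tried, in limma with the block and without replicate 3 (log2 fold change -0.30, adjusted p = 0.020), where 1.11% of all genes were called lower. Ndufa11 had 34.4, 32.5 and 37.3 CPM, against 35.7, 40.6 and 39.3 CPM, and overlapped.

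Core subunits of complex I include those that carry its flavin and iron-sulfur clusters. Ndufv1, which binds the flavin, stood at 82.3 ± 3.9 CPM in the MAZR-cKO-labelled libraries and 86.7 ± 3.5 CPM in WT (SD, n = 3 each). Ndufv3, an accessory subunit of the same electron-input arm, had 46.0, 49.4 and 48.5 CPM in MAZR-cKO 1, 2 and 3, against 50.5, 53.2 and 51.2 CPM in WT, without overlap. Ndufs3, a core subunit, was the 1 member higher without overlap, at 34.8, 33.4 and 34.9 CPM against 33.1, 33.4 and 32.5 CPM, a log2 fold change of 0.06 (SE 0.06, limma adjusted p = 0.926). The margin between the labels was thin, 33.38 CPM in MAZR-cKO 2 against 33.37 CPM in WT 2, and 39.7% of its 50-base windows, a measure explained with the isoforms, occur in other transcripts. Per length of its principal transcript the highest complex I gene was Ndufb7, an accessory subunit of the membrane arm, at 125 CPM per kb, and the median of complex I was 47.4 CPM per kb.

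In complex II, the succinate dehydrogenase of the tricarboxylic acid cycle, all 4 genes overlapped between the labels. Sdha, the flavoprotein, had 281, 282 and 300 CPM in MAZR-cKO 1, 2 and 3, against 303, 311 and 295 CPM in WT, with a log2 fold change of -0.08 (SE 0.05, limma adjusted p = 0.914). Sdhb, the iron-sulfur subunit, averaged 82.2 ± 6.5 and 86.6 ± 1.5 CPM, and the membrane anchors Sdhc and Sdhd 55.3 ± 2.8 and 57.5 ± 1.3 CPM and 62.5 ± 6.8 and 64.4 ± 3.7 CPM, each time with the MAZR-cKO-labelled libraries before WT (SD, n = 3 each). All 4 were higher in MAZR-cKO 3 than in WT 3 and lower in the MAZR-cKO-labelled libraries of the other pairs.

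In complex III, the cytochrome bc1 complex, Uqcrh did not overlap. This gene encodes the hinge protein that helps cytochrome c1 meet cytochrome c, and had 130, 116 and 127 CPM in MAZR-cKO 1, 2 and 3, against 139, 131 and 135 CPM in WT (log2 fold change -0.12, SE 0.05, limma adjusted p = 0.914). It was also the highest of the complex per length, at 237 CPM per kb. The core proteins Uqcrc1 and Uqcrc2 stood at 187 ± 7.8 and 191 ± 12 CPM and at 139 ± 9.6 and 148 ± 5.5 CPM in the MAZR-cKO-labelled libraries and in WT. The small subunit gene Uqcr10 stood at 37.1 ± 2.8 and 39.0 ± 0.39 CPM.

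Complex IV, cytochrome c oxidase, held the member of smallest p over all complexes. This was Cox7b, a small structural subunit encoded on the X chromosome (106015700 to 106022450, mm10, plus strand), with 47.8, 51.1 and 56.5 CPM in MAZR-cKO 1, 2 and 3, against 59.1, 57.7 and 60.2 CPM in WT. The groups did not overlap, and the log2 fold change was -0.19 (SE 0.07, limma adjusted p = 0.914, and 0.281 with the block). Cox7a2 had 41.1, 38.6 and 44.3 CPM, against 47.7, 45.0 and 47.0 CPM, again without overlap (log2 fold change -0.17, SE 0.07, limma adjusted p = 0.914). Cox4i1, which encodes the largest nuclear subunit, had 202, 190 and 217 CPM, against 218, 215 and 222 CPM, so that MAZR-cKO 3 lay inside the WT range.

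Xist and the Y-linked genes, given above, differed between libraries, and 3 members lie on the X chromosome. The other pair besides Cox7b overlapped between the labels. Ndufa1 had 26.8, 25.9 and 27.9 CPM in MAZR-cKO 1, 2 and 3, against 27.4, 29.9 and 27.5 CPM in WT. Ndufb11 had 52.8, 57.2 and 60.8 CPM, against 61.3, 59.1 and 60.6 CPM.

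Without overlap between the labels there were thus 5 lower members, Ndufa7, Ndufv3, Uqcrh, Cox7a2 and Cox7b, and 1 higher, Ndufs3. Of all tested genes, 5.74% were lower without overlap and 5% higher. Against these, 5 of the 76 members is a share close to that of all genes, and 1 of the 76 is a smaller share than that of all genes, with no test of either difference. An exact two-sided permutation test of 3 libraries against 3, with the replicate numbers ignored, cannot go below p = 0.1 for any of them. Permuting only within the numbered pairs has a higher floor still.

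In complex V, the catalytic head was the most abundant part of the whole set. Atp5b, the catalytic beta subunit, had 592, 577 and 633 CPM in MAZR-cKO 1, 2 and 3, against 636, 625 and 656 CPM in WT, with a log2 fold change of -0.09 (SE 0.05, limma adjusted p = 0.914). Atp5a1, the alpha subunit, had 595, 565 and 649 CPM, against 656, 613 and 646 CPM. Per length they stood at 324 and 251 CPM per kb, the first of all tested members and the third after Cox4i1 at 283 CPM per kb. The member of smallest p in this complex was Atp5d, the delta subunit of the central stalk, with 155, 149 and 174 CPM, against 170, 175 and 172 CPM (limma adjusted p = 0.914). Atp5f1, a subunit of the peripheral stalk with 38.7% of windows shared, stood at 92.9 ± 4.9 CPM in the MAZR-cKO-labelled libraries and 98.6 ± 1.1 CPM in WT. Atp5s, which is not a structural subunit but has the symbol prefix, stood at 4.38 ± 0.25 and 4.08 ± 0.24 CPM.

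Several subunits are encoded by paralogs with tissue-restricted expression, and in these cells 1 isoform carried nearly all reads of most families. Cox4i1 averaged 211 CPM over the 6 libraries, while Cox4i2, the lung and hypoxia isoform, had 1, 0 and 1 reads in MAZR-cKO 1, 2 and 3 and 1, 0 and 0 in WT. The heart and muscle isoforms Cox6a2 and Cox7a1 had 0 to 2 and 1 to 8 reads a library, beside Cox6a1 at 74.6 CPM and Cox7a2 at 44.0 CPM. The muscle isoform Cox8b, the testis isoforms Cox8c and Cox7b2 and the hypoxia-induced Ndufa4l2 had no read, beside Cox8a at 72.9 CPM and Ndufa4, now usually assigned to complex IV, at 64.4 CPM. Cox6b2, the testis isoform of Cox6b1, was the 1 tissue-restricted cytochrome c oxidase isoform to reach the limit for testing, with 1.43, 1.65 and 1.56 CPM in MAZR-cKO 1, 2 and 3 and 1.83, 0.713 and 0.951 CPM in WT, beside Cox6b1 at 86.0 to 94.1 CPM. The muscle markers Ckm and Myl2 had no read, and the 4 muscle and heart markers summed to at most 0.139 CPM. Cox7a2l, which takes part in joining complexes III and IV and is no tissue isoform, stood at 103 ± 9.9 CPM in the MAZR-cKO-labelled libraries and 108 ± 3.3 CPM in WT.

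**Figure D4:**
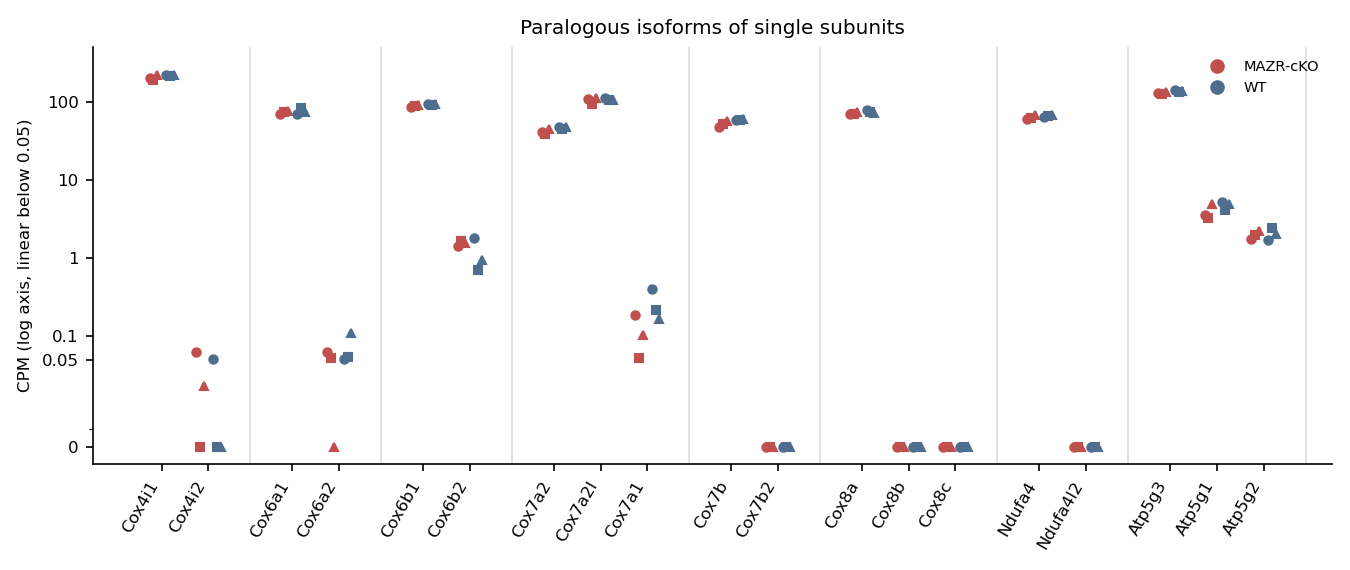
CPM in each library of the paralogous isoforms of single subunits, MAZR-cKO-labelled libraries left of WT for each gene, with replicates 1, 2 and 3 as circles, squares and triangles. Cox4i1, Cox6a1, Cox6b1, Cox7a2, Cox7b, Cox8a and Ndufa4 lie above 38 CPM in every library, while their tissue-restricted relatives lie below 2 CPM or at 0.

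The 3 genes Atp5g1, Atp5g2 and Atp5g3 encode the same mature c subunit of the proton-driven ring. Atp5g3 stood at 129, 125 and 134 CPM in MAZR-cKO 1, 2 and 3, against 140, 132 and 136 CPM in WT, Atp5g1 at 3.60, 3.25 and 4.89 CPM, against 5.28, 4.06 and 4.98 CPM, and Atp5g2 at 1.74, 1.97 and 2.22 CPM, against 1.73, 2.41 and 2.01 CPM. The levels of Atp5g1 and Atp5g2 are uncertain, because of the 50-base windows of their principal transcripts 66.0% and 100% also occur in transcripts of other genes, against 0% for Atp5g3.

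The same measure counts a window found on either strand of any other annotated gene. It does not separate pseudogene copies from genes that overlap the same locus. It was taken for all 84 annotated members. No window was shared in 38 of them, and 10% or more were shared in 30, of which 29 were tested. Atp5l, a subunit of the membrane part of the ATP synthase, shared 84.8% of its windows, with 12 annotated pseudogenes among the genes sharing them. It had 11, 20 and 25 reads in MAZR-cKO 1, 2 and 3 and 18, 17 and 16 reads in WT. Cox7c shared 53.0% and stood at 9.09 ± 0.82 CPM in the MAZR-cKO-labelled libraries and 8.54 ± 1.1 CPM in WT, Ndufs5 shared 41.2% at 4.17 ± 0.29 and 3.86 ± 0.90 CPM, and Ndufb4 shared 37.0% at 2.98 ± 0.58 and 2.64 ± 0.45 CPM (SD, n = 3 each). Tested members sharing 30% or more, 13 in number, had a median level of 23.9 CPM per kb, and the 47 sharing under 10% one of 73.9 CPM per kb. Across the 76 tested members, which share libraries and annotation, Spearman's rho between the shared percentage and the level per length was -0.25, a description over genes. The median log2 fold change was -0.07 in the 47 members sharing under 10%, 44 of which were under 0, and -0.06 in the other 29, of which 23 were.

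**Figure D5:**
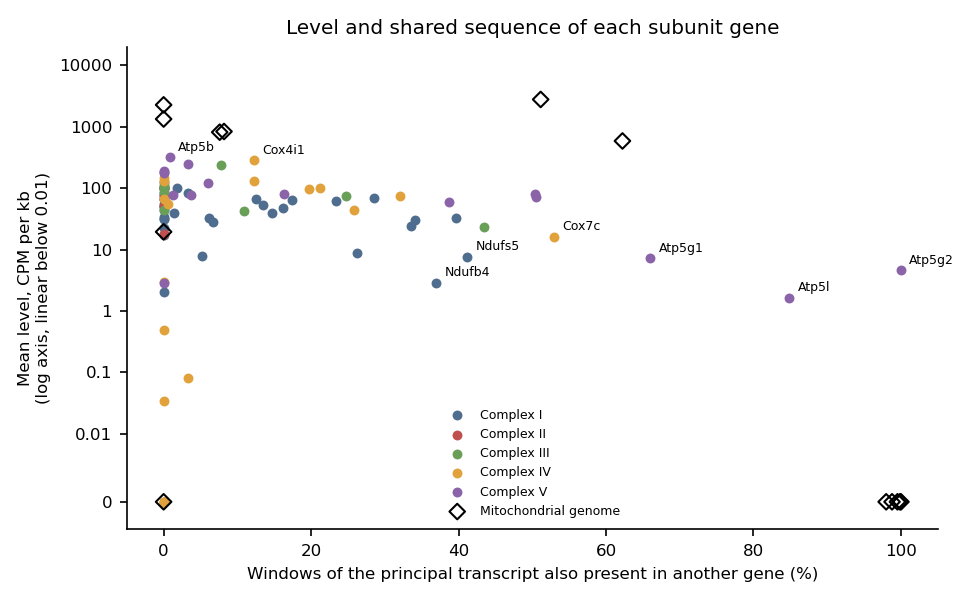
Mean level over the 6 libraries in CPM per kb of principal transcript against the percentage of its 50-base windows that also occur in transcripts of another gene, for the nuclear members by complex and for the 13 protein genes of the mitochondrial genome. Atp5l, Atp5g1 and Atp5g2 combine a high shared percentage with a low level, and 5 mitochondrial genes at 98.0 to 100% are listed at 0. Other members with many shared windows do not, such as Atp5h at 50.5% and 71.4 CPM per kb.

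The mitochondrial genome encodes the remaining subunits of complexes I, III, IV and V. Of its 13 protein genes, 6 are listed at 0 in every library, although every respiring cell uses them: mt-Co2, mt-Co3, mt-Atp6, mt-Atp8, mt-Nd3 and mt-Nd4l. All but mt-Atp8 shared 98.0 to 100% of their windows with other annotated genes, pseudogenes among them, while mt-Atp8 shared 0%. The other 7 summed to 11333, 10836 and 12371 CPM in MAZR-cKO 1, 2 and 3, against 11133, 11227 and 11458 CPM in WT. Of these 7, 4 had a log2 fold change under 0 and 3 above, with a median of -0.01 and 0 called by limma. mt-Co1, the catalytic subunit of complex IV, stood at 4396 ± 250 CPM in the MAZR-cKO-labelled libraries and 4239 ± 45 CPM in WT, and mt-Nd5 of complex I at 1526 ± 134 and 1458 ± 70 CPM. The levels of mt-Co1 and mt-Nd4, and so the sum, are uncertain, because these genes shared 51.1% and 62.2% of their windows. The rest of the 7 shared at most 8.19%.

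Genes that build or feed these complexes were counted in the same fit, and limma called 0 of them in any list, with or without the block. Among 44 tested assembly factors, 23 had a log2 fold change under 0 (median -0.01). Sco1, a copper chaperone of complex IV, stood at 11.0 ± 0.49 CPM in the MAZR-cKO-labelled libraries and 12.6 ± 0.67 CPM in WT, and Uqcc2, an assembly factor of complex III, at 14.5 ± 1.7 and 16.7 ± 1.4 CPM. Without overlap there were 2 lower and 4 higher of the 44 assembly factors, beside 5.74% lower and 5% higher of all tested genes. The higher ones were Cox20, Acad9, Ndufaf5 and Lyrm7, with log2 fold changes of 0.13, 0.10, 0.15 and 0.23 (limma adjusted p = 0.914 each). Among 17 tricarboxylic acid cycle and pyruvate dehydrogenase genes, 11 were under 0 (median -0.05), with citrate synthase, Cs, at 220 ± 16 and 237 ± 11 CPM and fumarase, Fh1, at 38.1 ± 3.8 and 41.6 ± 1.4 CPM. Of 94 genes of mitochondrial ribosomes and protein import, 66 were under 0 (median -0.05), with Mrpl12 at 32.5 ± 3.6 and 37.8 ± 1.4 CPM and Timm13 at 41.5 ± 3.9 and 47.5 ± 3.5 CPM.

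Of 16 tested regulators of mitochondrial biogenesis, 11 were under 0 (median -0.04). Pprc1, a coactivator of NRF1, had 95.7, 89.5 and 104 CPM in MAZR-cKO 1, 2 and 3, against 106, 112 and 106 CPM in WT, without overlap (log2 fold change -0.17, SE 0.06, limma adjusted p = 0.914). Polg2, the accessory subunit of the mitochondrial DNA polymerase, was the 1 regulator higher without overlap (limma adjusted p = 0.914). It had 23.61, 24.37 and 23.27 CPM in MAZR-cKO 1, 2 and 3, against 21.69, 22.61 and 22.04 CPM in WT. Of all tested genes, 5.74% were lower and 5% higher without overlap. Myc had 117, 94.3 and 153 CPM, against 147, 133 and 156 CPM. A further 11 genes outside the symbol rule cover subunits, electron carriers, ubiquinone synthesis and the ATP synthase inhibitor. Of these 11 genes, 9 were under 0 (median -0.07). Etfb of the electron transfer flavoprotein stood at 35.3 ± 2.9 CPM in the MAZR-cKO-labelled libraries and 38.7 ± 0.53 CPM in WT. Coq7 of ubiquinone synthesis stood at 2.85 ± 0.91 and 3.73 ± 0.46 CPM. In pair 3 the share of tested genes lower in the library labelled MAZR-cKO was 30.3% for the members. It was 15.9% for assembly factors, 21.3% for ribosome and import genes and 35.3% for tricarboxylic acid cycle genes. For biogenesis regulators it was 50%, and for the 11 further genes outside the rule 54.5%.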

How the data were processed

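The authors deposited 1 table of CPM values (gene counts scaled to a library size that was not exactly the sum of the counts) for 6 libraries. The submitters' processing notes list FastQC, STAR 2.5.2b, Subread 1.5.1, R 3.4, edgeR and the build mm10. Settings, counting strand and annotation are not given in the sources used here. Every value was a whole multiple of 1 read (100% of values above 0, tolerance 0.01 reads), worth 0.0347 to 0.0621 CPM, so whole reads were recovered. The libraries held 15481565 to 28184456 reads.

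The labels' 2 genotypes were compared on the log2(CPM + 0.5) scale by limma 3.58.1 in R 4.3.3, its prior variance following mean level, over 12040 genes at 1 CPM or more in at least 3 libraries, with Benjamini-Hochberg adjustment over all of them. The fold change understates low genes. edgeR 4.0.16 (quasi-likelihood) and DESeq2 1.42.0 on the recovered reads, other scalings, pseudocounts and filters, and leaving out libraries were alternatives. The limma fits with and without the block and the edgeR fit, but not DESeq2, were also run on simulated data. Identifiers were matched to GENCODE M21 (GRCm38, the assembly of mm10), in which 45229 of 46078 rows and 84 of 85 members were found. A principal transcript is the best-ranked by APPRIS and support level, then the shortest. Symbol-rule rows were kept as deposited.

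Libraries of both genotypes share numbers 1 to 3, and the descriptions give each number a shared code. Same-numbered libraries correlated over 12040 genes at 0.40, 0.38 and 0.38 after subtracting genotype means. Each was above the limit of 0.1, so the numbers were taken to pair them. The limma values printed do not use the pairs unless the block is named. With the block the smallest limma adjusted p of a member was 0.281. The members and gene lists were chosen with earlier results of these data known. Named were, in each complex, the 3 members of smallest limma p and the 2 highest per length, the isoform families, all Sdh genes, X-linked members, and up to 4 members per direction without overlap. Ndufv3, Ndufv1, Atp5s, the Yjefn3 row and members with shared windows were added after their values were seen, as were Polg2 and the assembly factors higher without overlap.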

Additional observations from a re-analysis of the deposited data

How the results depend on the processing

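Every alternative left the median log2 fold change of all members under 0, from -0.12 to -0.04, and each complex median under 0 as well. Members under 0 numbered 60 to 70 over all fits, and 44 of 47 when members with 10% or more shared windows were left out, a choice made after seeing the data that removes members. All genes called by limma numbered 5, and 46 with the replicate block, 46 in edgeR with the block, 34 in DESeq2, and 25 with the block and equal library medians, an alternative chosen after seeing the data. They numbered 4 to 14 without 1 library (14 without MAZR-cKO replicate 3) and 8, 45 and 279 without replicate 1, 2 and 3 in the blocked fit. Members called were 0 throughout, except 1, Ndufa6, without replicate 3 in the blocked fit. The same setting gave medians of -0.12, -0.12, -0.13, -0.12 and -0.11 in complexes I to V. Over all alternatives they ran from -0.12 to -0.04, -0.12 to -0.04, -0.13 to -0.02, -0.12 to -0.05 and -0.12 to -0.04. With all 6 libraries the block changed no call of a member. No unblocked fit without both libraries of number 3 was run, so the call of Ndufa6 cannot be credited to the block. The share of members under 0 was 86.8% with equal medians and 84.2% with quantile normalization, against 88.2% as reported.

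Among 31 named members, 5 had a log2 fold change above 0 in some fit, against a value under 0 in the reported one. This held in 12 of 617 comparisons of a member with a fit. Leaving out 1 library or 1 replicate number gave -0.13 to 0.062 for Atp5g2, -0.092 to 0.041 for Cox6a1, -0.13 to 0.017 for Cox7a2l, -0.12 to 0.038 for Sdhd and -0.095 to 0.029 for Uqcrc1. Of single libraries left out, WT replicate 2 turned Atp5g2 (0.062), Cox6a1 (0.041) and Uqcrc1 (0.025), MAZR-cKO replicate 1 turned Atp5g2 (0.032), Cox6a1 (0.0057) and Uqcrc1 (0.0007), and MAZR-cKO replicate 2 turned Cox7a2l (0.017) and Sdhd (0.038). Without replicate 2 and with the block they were Atp5g2 (0.061), Cox6a1 (0.034), Cox7a2l (0.0069) and Uqcrc1 (0.029). Over libraries left out 1 at a time, the lowest were -0.13 for Atp5g2, -0.084 for Cox6a1 and -0.064 for Uqcrc1. The cause was not tested. Depth limits the 10 tested members under 10 CPM, which include several with shared windows.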

Other observations

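Among the transcripts of the mitochondrial genome, mt-Nd6, the complex I gene read from the strand opposite to most others, stood apart in its spread. It had 4.66, 18.6 and 4.40 CPM in MAZR-cKO 1, 2 and 3, against 10.8, 11.0 and 11.0 CPM in WT, so that the MAZR-cKO-labelled libraries lay on both sides of 3 nearly equal WT values. Its log2 fold change was -0.55 (SE 0.44, limma adjusted p = 0.926). mt-Nd1 and mt-Cytb, read from the other strand, had 1278 ± 135 and 2629 ± 192 CPM in the MAZR-cKO-labelled libraries and 1286 ± 11 and 2588 ± 64 CPM in WT (SD, n = 3 each). This gene was singled out after its values were seen.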
